A study of Mus musculus with 8 samples.

Results

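The transcription factor genes Prrx1, Prrx2, Twist1, Twist2, Msx1, Tbx5, Tbx4, Pitx1, Shox2 and Lmx1b, which are known from the mesenchyme of the developing limb bud, were followed in adult bone marrow stromal cells. They were chosen by name for their roles in limb development, and all 10 were found among the 49315 genes in the counts. To ask which of them adult marrow stroma expressed, and whether forelimb or hindlimb genes prevailed, 7 sorted populations, named clusters 1 to 7, were compared by RNA-seq with each other and with a library of input marrow cells. All 8 libraries were labelled as from wild type C57BL/6J mice with an age of 6 weeks and no treatment, and the Methods name the strain C57BL/6JJcl. According to the Methods, femurs, tibias and ilium were crushed and digested with collagenase, so hindlimb and pelvic bones were named and no forelimb bone was. The populations were sorted by CD24, CD39, CD54, Sca-1 and Ly-6C after removal of cells with the blood or endothelial antigens CD45, Ter119 and CD31. They had been defined by single-cell RNA-seq of cells positive for PDGFR-α and Sca-1, and the Methods list a PDGFR-α antibody for sorting. The sources do not say how the input cells were prepared, and the labels describe crushed bone marrow for every library. Each population had 1 library and no replicate, so no test between populations was possible, no p-value is given, and all intervals cover counting error only. In these bulk libraries, fewer cells that express a gene cannot be told apart from less of its RNA in each cell.

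The limb bud is filled with mesenchyme that arises from the lateral plate mesoderm and later forms cartilage, bone, tendon and connective tissue of the limb. Prrx1 and Prrx2 are paired-related homeodomain factors of this mesenchyme. Twist1 and Twist2 are basic helix-loop-helix factors that hold back osteogenic and myogenic differentiation, and Msx1 is a homeodomain factor downstream of BMP signals. Tbx5 is a T-box factor required to form the forelimb, whereas its paralog Tbx4 and the homeodomain factor Pitx1 are expressed in the hindlimb, where Pitx1 gives the limb its hindlimb character. Shox2 patterns the proximal limb skeleton, and Lmx1b specifies the dorsal side. Genes of limb position are known to remain expressed in adult stroma.

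The depth and composition of the libraries set the precision of these values. Cluster 1 had 24205863 reads counted on genes, cluster 2 had 25349917, cluster 3 had 27102715, cluster 4 had 32549319, cluster 5 had 12833648, cluster 6 had 31669132, cluster 7 had 33238133 and the input had 20162876. The loci Rn18s-rs5, Lars2 and mmu-mir-689-2 together took 34.8% of the counts in cluster 5 and 10.4% in cluster 2, against 0.188% to 1.91% in the other libraries. Levels are given as RPKM, the number of reads per kilobase of exon scaled to the total count on genes, and the share of these 3 loci bears on all other levels in that library. The stromal label was compared with marker genes. All 9 stromal genes, including Dcn, Col1a1 and Pdgfra, were above RPKM 2 in all 8 libraries. Markers of blood cells were present as well, although CD45+ and Ter119+ cells had been removed. Ptprc, which encodes CD45, was at 1.69 to 9.26 RPKM in the sorted libraries and 13.5 RPKM in the input, and the neutrophil gene S100a8 was at 3132 to 7878 RPKM in the sorted libraries and 10797 RPKM in the input.

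Of the 10 genes, 8 were above RPKM 2 in at least 1 sorted library, whereas 25.1% of all genes in the counts were. The exceptions were Tbx5 and Lmx1b. The highest level was that of Prrx2, at 55.6 RPKM in cluster 4, followed by Twist1, at 30.0 RPKM, and Msx1, at 28.2 RPKM, both in cluster 1. All 8 differed more than 2-fold between their highest and lowest sorted library on the RPKM + 1 scale. Such a difference was common, because 70.6% of the 12360 genes above RPKM 2 also showed it.

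To compare the roles, the RPKM of the 10 genes was summed in each library. Prrx1, Prrx2, Twist1, Twist2 and Msx1, the general limb mesenchyme factors, took 66.3% of the sum in cluster 6, 71.3% in cluster 2, between 85.3% and 90.7% in the remaining sorted libraries, and 74.1% in the input. The share of these 5 genes was lowest in clusters 6 and 2. In cluster 6 it rested on Twist1, at 13.4 RPKM, while Shox2, at 6.01 RPKM, was above each of the other general factors. The hindlimb genes Tbx4 and Pitx1 held between 4.37% of the sum in cluster 5 and 16.6% in cluster 6. Their own sum in cluster 6, at 6.19 RPKM, lay within the range of the other sorted libraries, from 3.01 RPKM in cluster 5 to 10.2 RPKM in cluster 7, whereas the sum of the general factors was 24.7 RPKM in cluster 6 and 128.6 RPKM in cluster 1. The forelimb gene Tbx5 held between 0.0242% in cluster 5 and 1.26% in cluster 1 among the sorted libraries, and 2.44% in the input.

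**Figure D1:**
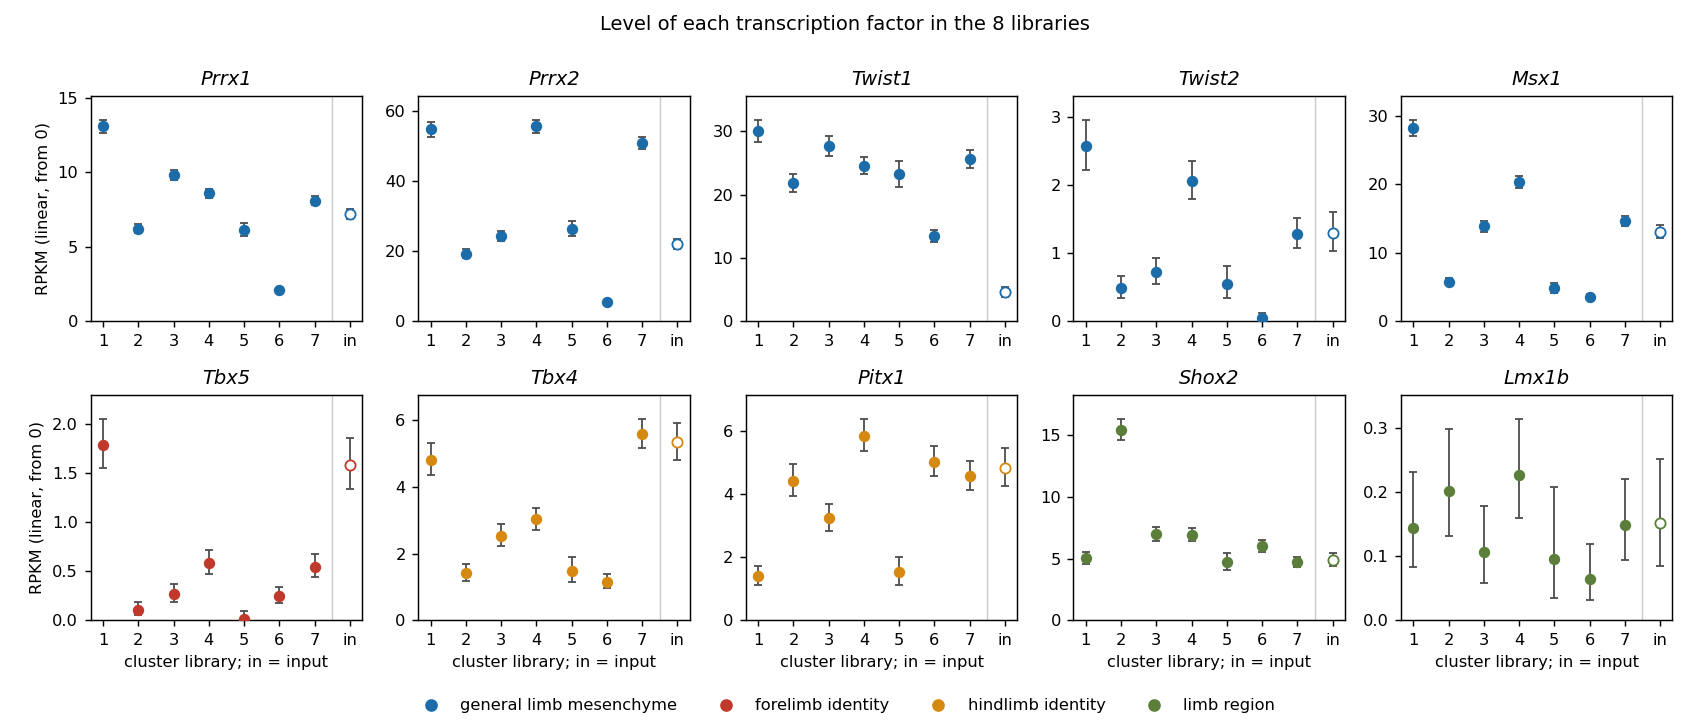
RPKM on linear axes from 0 of each of the 10 genes in cluster libraries 1 to 7 and in the input (in, open points), with 1 library each; bars are 95% exact Poisson intervals of the counts, and colours give the role of the gene. Cluster 6 was the lowest sorted library for the 5 general factors, Shox2 stood highest in cluster 2, and Twist1 was lower in the input than in all 7 sorted libraries.

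Prrx1 (ENSMUSG00000026586, GRCm38 chr1:163245119-163313710, minus strand) was counted over 11066 bases of exon. Its level was 13.1 RPKM in cluster 1, 6.22 RPKM in cluster 2, 9.81 RPKM in cluster 3, 8.60 RPKM in cluster 4, 6.15 RPKM in cluster 5, 2.08 RPKM in cluster 6, 8.08 RPKM in cluster 7 and 7.19 RPKM in the input. Cluster 1 was highest and cluster 6 lowest, with 3506 and 729 counts and a 6.29-fold difference (95% exact binomial interval 5.81 to 6.82). Only clusters 2 and 5, which were neighbours in the order of the libraries, had an interval of their ratio that included 1.

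Its paralog Prrx2 (ENSMUSG00000039476, chr2:30834972-30881251, plus strand) had the higher RPKM of the pair in all 8 libraries, by 2.47-fold in cluster 3 to 6.46-fold in cluster 4. This direction depended on exon length, which was 1961 bases for Prrx2 and 11066 for Prrx1. Without that correction, Prrx2 had more counts than Prrx1 in clusters 4 and 7 only. In clusters 1, 2, 3, 5 and 6 and in the input the ratio of counts was below 1, with 0.437 in cluster 3. Prrx2 was at 54.7 RPKM in cluster 1, 19.3 RPKM in cluster 2, 24.2 RPKM in cluster 3, 55.6 RPKM in cluster 4, 26.3 RPKM in cluster 5, 5.52 RPKM in cluster 6, 50.9 RPKM in cluster 7 and 22.0 RPKM in the input. The libraries therefore fell into clusters 1, 4 and 7 with high levels, clusters 2, 3 and 5 with intermediate levels, and cluster 6 below the others. The intermediate levels were near that of the input under total counts, but with TMM factors, which rescale each library by the bulk of its genes, the input was at 13.7 RPKM and these libraries were at 19.3, 24.6 and 35.6 RPKM. Clusters 4 and 1 did not differ beyond counting error (ratio 1.02, 0.965 to 1.07), and neither did clusters 5 and 3. The difference between clusters 4 and 6 was 10.1-fold (9.001 to 11.3).

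Twist1 (ENSMUSG00000035799, chr12:33957671-33959817, plus strand) varied least among the general factors in the sorted libraries. It was at 30.0 RPKM in cluster 1, 21.8 RPKM in cluster 2, 27.7 RPKM in cluster 3, 24.5 RPKM in cluster 4, 23.2 RPKM in cluster 5, 13.4 RPKM in cluster 6, 25.6 RPKM in cluster 7 and 4.54 RPKM in the input. The highest was 2.24-fold the lowest (2.03 to 2.46), and clusters 7, 4, 5 and 2, which followed each other in the order, were not separated from the next by counting error. With TMM factors cluster 5 became the highest library and this ratio fell to 1.57.

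Twist2 (ENSMUSG00000007805, chr1:91801461-91848028, plus strand), the paralog of Twist1, was low in all libraries. Its level was 2.58 RPKM in cluster 1, 0.485 RPKM in cluster 2, 0.721 RPKM in cluster 3, 2.06 RPKM in cluster 4, 0.540 RPKM in cluster 5, 0.0497 RPKM in cluster 6, 1.28 RPKM in cluster 7 and 1.30 RPKM in the input. Clusters 1 and 4 were high, and cluster 6 held 5 counts against 198 counts in cluster 1, a 51.8-fold difference (21.8 to 161). On the RPKM + 1 scale, which damps such low levels, the difference was 3.41-fold, against 8.67-fold for Prrx2. Of its exon bases, 46.5% were shared with an unnamed gene on the opposite strand, which had 0 to 6 counts in the 8 libraries. It is not known whether the counting used strand or how it treated reads in shared bases. Reads of the 2 genes therefore cannot be told apart there. Whether reads in these bases were counted for Twist2 was not tested.

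The ratio of Twist1 to Twist2 within a library does not depend on the scaling between libraries. Twist1 was 11.7-fold higher in cluster 1, 44.97-fold in cluster 2, 38.4-fold in cluster 3, 11.9-fold in cluster 4, 42.9-fold in cluster 5, 269.9-fold in cluster 6, 19.99-fold in cluster 7 and 3.50-fold in the input. The ratio was thus smallest in the input (2.66 to 4.64) and largest in cluster 6 (115 to 834), which did not overlap. These intervals cover counting error only, and not the treatment of reads in the exon bases that Twist2 shared with the unnamed gene. In the input Twist2, at 1.30 RPKM, was not above the background of that library, described below, so the rank of the input is uncertain. Because the pair differed so widely, the 250 bases before the RefSeq start of each gene (GRCm38.p6) are shown for comparison. Capitals mark matches to TATAAA or to the T-box letters AGGTGT on either strand.
Twist1, chr12:33957421-33957670, plus strand: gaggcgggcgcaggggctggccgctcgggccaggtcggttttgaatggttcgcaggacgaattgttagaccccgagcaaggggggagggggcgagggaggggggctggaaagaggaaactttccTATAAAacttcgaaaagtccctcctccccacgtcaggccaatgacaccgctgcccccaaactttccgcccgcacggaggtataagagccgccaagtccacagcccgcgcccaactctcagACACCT
Twist2, chr1:91801211-91801460, plus strand: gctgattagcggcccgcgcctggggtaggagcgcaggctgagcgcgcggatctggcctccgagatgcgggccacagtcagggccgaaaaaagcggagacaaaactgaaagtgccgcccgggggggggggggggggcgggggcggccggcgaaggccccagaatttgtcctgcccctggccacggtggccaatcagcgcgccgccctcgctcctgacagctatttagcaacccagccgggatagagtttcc
The Twist1 sequence held 62.4% GC and 18 CpG, with TATAAA beginning at -126 from the start and ACACCT, the reverse complement of AGGTGT, at -6. The Twist2 sequence held 68.8% GC and 23 CpG and had no match. Both were richer in GC and CpG than the median of 32851 mouse promoters of this length, which had 52.4% GC and 6 CpG. TATAAA was found in 12.4% and AGGTGT in 11.8% of those promoters, and a match describes letters and not a site of binding.

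The promoter table held 8 of the members. Its start lay inside the gene as counted for Tbx4, Prrx2 and Prrx1 and before it for Lmx1b, so for these the 250 bases are not those before the start of the counted gene and are not described. For Msx1 and Shox2 the starts agreed within 2 bases. TATAAA was found before Shox2, and none of the letters searched was found before Msx1. The other letters searched were CATCTG, an E-box present in 14.4% of all promoters, the homeodomain letters TAATTA, present in 4.84%, and the letters TAATCC, present in 6.25%.

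Msx1 (ENSMUSG00000048450, chr5:37820485-37824583, minus strand) was at 28.2 RPKM in cluster 1, 5.77 RPKM in cluster 2, 13.8 RPKM in cluster 3, 20.3 RPKM in cluster 4, 4.81 RPKM in cluster 5, 3.60 RPKM in cluster 6, 14.6 RPKM in cluster 7 and 13.1 RPKM in the input. Clusters 1, 3, 4 and 7 all lay above the input and clusters 2, 5 and 6 all lay below it, although for cluster 3 the interval of the ratio to the input (0.966 to 1.16) included 1. Clusters 7 and 3 did not differ beyond counting error, and the other 5 neighbouring pairs did. The difference between clusters 1 and 6 was 7.83-fold (6.99 to 8.79).

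The forelimb gene Tbx5 (ENSMUSG00000018263, chr5:119832668-119885219, plus strand) was low in all libraries. It was at 1.79 RPKM in cluster 1, 0.110 RPKM in cluster 2, 0.268 RPKM in cluster 3, 0.585 RPKM in cluster 4, 0.0167 RPKM in cluster 5, 0.250 RPKM in cluster 6, 0.547 RPKM in cluster 7 and 1.58 RPKM in the input. These values rested on 202 counts in cluster 1, 1 count in cluster 5, 13 counts in cluster 2 and 149 counts in the input. Cluster 1 stood above the other sorted libraries, with a 3.05-fold higher level than cluster 4. Against the single count of cluster 5 the ratio was 107 (19.0 to 4251), so its size was hardly measured.

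As a measure of low-level background, the 991 olfactory receptor genes were used, which marrow stroma should not express. Their 95th percentile was between 0.00892 RPKM in cluster 6 and 0.0793 RPKM in cluster 3 in 6 of the sorted libraries, 0.245 RPKM in cluster 5 and 2.76 RPKM in the input. Tbx5 was above this percentile in all sorted libraries except cluster 5. In the input, Tbx5, Twist2 and Lmx1b were below it, and Lmx1b, at 0.152 RPKM, was also below the olfactory median of 0.165 RPKM. With the input lowered by that median, Twist1 was the only member above it in all 7 sorted libraries, against 7.8% of genes above RPKM 2. The part of background in the input levels was not otherwise tested.

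The hindlimb gene Tbx4 (ENSMUSG00000000094, chr11:85886422-85916097, plus strand) was at 4.80 RPKM in cluster 1, 1.40 RPKM in cluster 2, 2.53 RPKM in cluster 3, 3.03 RPKM in cluster 4, 1.49 RPKM in cluster 5, 1.15 RPKM in cluster 6, 5.57 RPKM in cluster 7 and 5.34 RPKM in the input. With total counts, clusters 7 and 1 reached the range of the input, whereas clusters 5, 2 and 6 were low and each did not differ from the next beyond counting error. The difference between clusters 7 and 6 was 4.84-fold (3.99 to 5.92). With TMM factors cluster 2 became the lowest library.

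Pitx1 (ENSMUSG00000021506, chr13:55825051-55836192, minus strand), the other hindlimb gene, followed another order. It was at 1.42 RPKM in cluster 1, 4.43 RPKM in cluster 2, 3.25 RPKM in cluster 3, 5.86 RPKM in cluster 4, 1.53 RPKM in cluster 5, 5.04 RPKM in cluster 6, 4.59 RPKM in cluster 7 and 4.84 RPKM in the input. Cluster 1, which was high for Tbx4 and for most general factors, was the lowest library for Pitx1, and cluster 6, which was lowest for Tbx4, was among the highest. Clusters 6, 7 and 2 were not separated from each other by counting error as neighbours in the order, and neither were clusters 5 and 1. Cluster 4 was 4.14-fold above cluster 1 (3.31 to 5.24), and with TMM factors cluster 6 took the place of cluster 4 as the highest library.

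To compare forelimb and hindlimb identity, ratios were formed within each library. Tbx4 was above Tbx5 by 2.69-fold in cluster 1 (2.26 to 3.20), 12.8-fold in cluster 2 (7.21 to 24.7), 9.42-fold in cluster 3 (6.55 to 13.9), 5.17-fold in cluster 4 (4.08 to 6.61), 89.3-fold in cluster 5 (15.5 to 3583), 4.61-fold in cluster 6 (3.17 to 6.84), 10.2-fold in cluster 7 (8.11 to 12.9) and 3.38-fold in the input (2.78 to 4.11). Hence Tbx4 exceeded Tbx5 in all 8 libraries, and the interval lay above 1 in each of them. In cluster 5 and the input, Tbx5 was not above the olfactory background of the library, so the size of these ratios is uncertain. The intervals do not cover that background. The smallest ratio was that of cluster 1, where Tbx5 had its highest level, and its interval overlapped that of the input.

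Pitx1 was 40.3-fold above Tbx5 in cluster 2 (23.2 to 76.7), 12.1-fold in cluster 3 (8.43 to 17.9), 10.03-fold in cluster 4 (7.99 to 12.7), 91.5-fold in cluster 5 (15.7 to 3684), 20.2-fold in cluster 6 (14.4 to 29.0), 8.39-fold in cluster 7 (6.62 to 10.7) and 3.06-fold in the input (2.49 to 3.77). Cluster 1 was the exception, with a ratio of 0.793 (0.612 to 1.02) whose interval included 1. The limit given above for Tbx5 in cluster 5 and the input applies to these ratios as well. Without correction for exon length the ratio of counts in cluster 1 was 0.451 for Pitx1 over Tbx5 and 1.96 for Tbx4 over Tbx5.

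The hindlimb genes were also compared with each other. Pitx1 over Tbx4 was 0.295 in cluster 1 (0.232 to 0.371), 3.15 in cluster 2 (2.54 to 3.93), 1.29 in cluster 3 (1.07 to 1.55), 1.94 in cluster 4 (1.68 to 2.23), 1.02 in cluster 5 (0.697 to 1.498), 4.38 in cluster 6 (3.58 to 5.39), 0.823 in cluster 7 (0.725 to 0.934) and 0.906 in the input (0.770 to 1.07). Tbx4 prevailed in clusters 1 and 7 and Pitx1 in clusters 2, 3, 4 and 6, while in cluster 5 and the input the interval included 1.

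**Figure D2:**
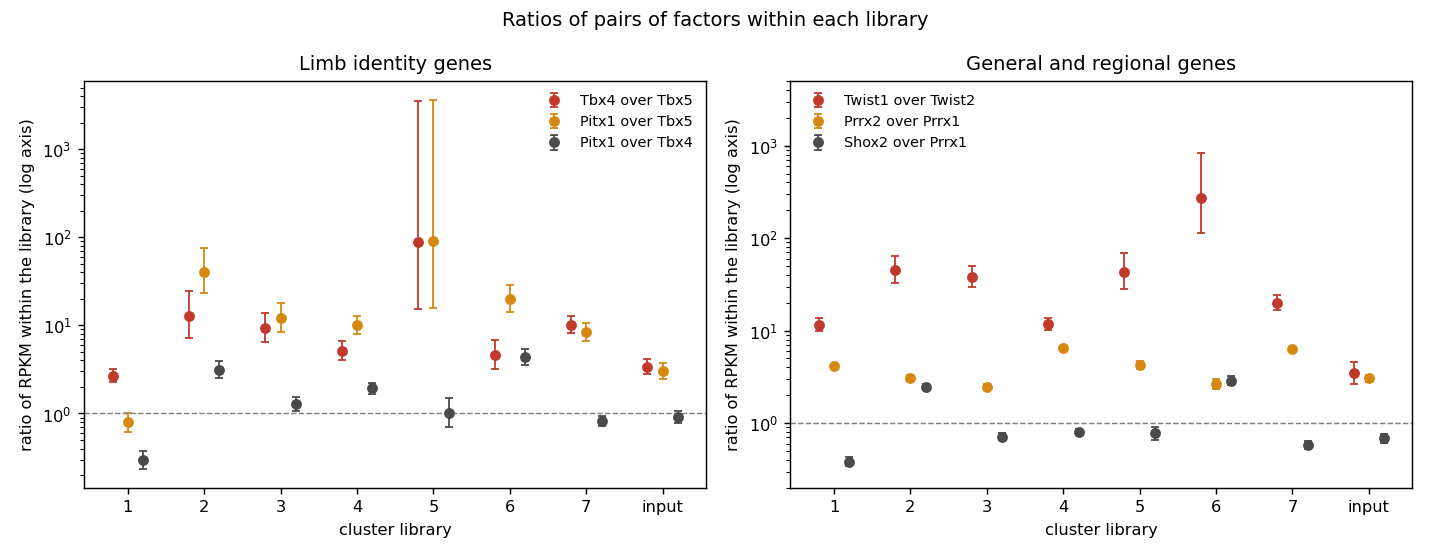
Ratios of RPKM within each library on log axes, for limb identity genes (left) and for general and regional genes (right), with 1 library each for clusters 1 to 7 and the input; bars are 95% exact binomial intervals and the dashed line marks 1. Tbx4 over Tbx5 lay above 1 in all 8 libraries, the smallest Pitx1 over Tbx5 was 0.793 in cluster 1, and the largest Twist1 over Twist2 was 269.9 in cluster 6.

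Hox genes of limb position were set beside these ratios. Hoxc10, a gene of the hindlimb and lumbosacral level, was above RPKM 2 in all sorted libraries, with 11.9 RPKM in cluster 1, 14.3 RPKM in cluster 2, 8.68 RPKM in cluster 3, 12.1 RPKM in cluster 4, 5.88 RPKM in cluster 5, 6.42 RPKM in cluster 6, 10.5 RPKM in cluster 7 and 10.9 RPKM in the input. Its neighbour Hoxc11 did not exceed 1.47 RPKM, and the forelimb-level genes Hoxc4 and Hoxc5 did not exceed 0.568 and 0.955 RPKM in the sorted libraries. Thus 1 of the 4 limb-level Hox genes listed was above RPKM 2, against 25.1% of all genes.

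Shox2 (ENSMUSG00000027833, chr3:66971727-66981771, minus strand) stood apart from the other genes in its order of libraries. It was at 5.03 RPKM in cluster 1, 15.5 RPKM in cluster 2, 6.99 RPKM in cluster 3, 6.93 RPKM in cluster 4, 4.75 RPKM in cluster 5, 6.01 RPKM in cluster 6, 4.73 RPKM in cluster 7 and 4.93 RPKM in the input. Cluster 2 was 2.21-fold above the next library, cluster 3 (2.01 to 2.44), and the other 6 sorted libraries lay between 4.73 and 6.99 RPKM. Within a library, Shox2 was above Prrx1 in clusters 2 and 6 only, with RPKM ratios of 2.48 and 2.89. Without correction for exon length, the ratios of Shox2 to Prrx1 counts there were 0.743 and 0.864, both below 1. Of the exon bases of Shox2, 4.62% were shared with Rsrc1 on the opposite strand, whose counts were also highest in cluster 2 (1717) and next highest in cluster 3 (1357), with 438 to 1136 in the other sorted libraries. The part of those reads in the level of Shox2 was not tested.

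Lmx1b (ENSMUSG00000038765, chr2:33560965-33640511, minus strand) was near the limit of detection. It had 17 counts in cluster 1, 25 counts in cluster 2, 14 counts in cluster 3, 36 counts in cluster 4, 6 counts in cluster 5, 10 counts in cluster 6, 24 counts in cluster 7 and 15 counts in the input, or 0.0647 to 0.227 RPKM in the sorted libraries. None of the 6 neighbouring pairs in its order was separated by counting error, and the highest and lowest, clusters 4 and 6, differed by 3.50-fold (1.70 to 7.91).

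To compare sorted populations with the input, each sorted level was divided by that of the input. Twist1 was the only member above the input in all 7 sorted libraries, whereas 6.55% of the genes above RPKM 2 were. Its ratio to the input was 6.61 in cluster 1 (5.57 to 7.90), 4.80 in cluster 2 (4.03 to 5.75), 6.09 in cluster 3 (5.13 to 7.28), 5.40 in cluster 4 (4.56 to 6.45), 5.11 in cluster 5 (4.24 to 6.18), 2.96 in cluster 6 (2.47 to 3.55) and 5.63 in cluster 7 (4.75 to 6.72). A sorted median more than 2-fold the input on the RPKM + 1 scale was found besides in 3.12% of genes, and Twist1 was again the only member.

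The other genes spread around the input. Prrx2 and Shox2 were above it in 5 sorted libraries, Prrx1 and Msx1 in 4, Twist2, Pitx1 and Lmx1b in 2, and Tbx5 and Tbx4 in 1. These counts depended on the scaling. With TMM factors Prrx1, Prrx2 and Lmx1b were above the input in 6 sorted libraries, Pitx1 in 5, Msx1 in 4, Twist2 in 3, Tbx4 in 2 and Tbx5 in 1. Lmx1b had only 15 counts in the input, and with total counts the interval of its ratio to the input included 1 in every sorted library. With total counts, Tbx5 exceeded the input only in cluster 1 (1.79 against 1.58 RPKM), and Tbx4 only in cluster 7 (5.57 against 5.34 RPKM), and the interval of both ratios included 1. With counts thinned to equal totals, Tbx4 was below the input in all 7. With TMM factors the median of all genes above RPKM 2 fell by 0.57 on the log2 scale in the input and by 0.12 in cluster 1 and rose by 0.35 in cluster 5 and 0.30 in cluster 6. Shox2 was then also above the input in all 7 sorted libraries, and the share of genes above RPKM 2 that were rose to 31.4%. Twist1 remained 6.08-fold to 11.02-fold above the input under that scaling.

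**Figure D3:**
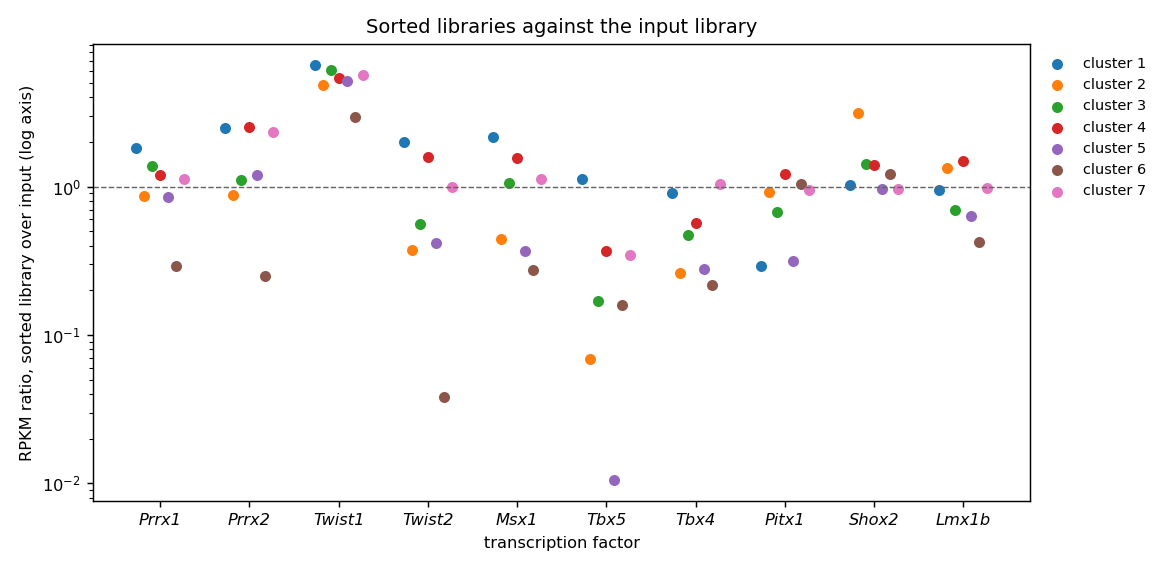
Ratio of the RPKM of each sorted library to that of the input on a log axis, for each of the 10 genes, with 1 point for each of clusters 1 to 7; the dashed line marks 1, an equal level. All 7 points of Twist1 lay between 2.96 and 6.61, while those of every other gene fell on both sides of 1.

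The study divided the populations by open chromatin into a group of clusters 1, 3, 4 and 7 and a group of clusters 2, 5 and 6. It also reported similar results from clustering its RNA-seq data, so a match of these counts to the split is not independent of that report. For 5 of the 8 members above RPKM 2, namely Prrx1, Twist1, Twist2, Msx1 and Tbx4, all libraries of the first group lay above all of the second, and no member showed the reverse. Over all genes above RPKM 2, the first pattern was found in 20.4% and the reverse in 0.51%. With total counts, Twist2 and Tbx4 were above RPKM 2 only in sorted libraries of the first group. They therefore passed the threshold through the group where they were high, and their place among the 5 adds no support for the pattern. Tbx5, which did not pass the threshold, had the same pattern with total counts, but only by 0.268 RPKM in cluster 3 against 0.250 RPKM in cluster 6, a ratio whose interval included 1 (0.654 to 1.76), and with TMM factors cluster 6 was the higher. The margins were 1.30-fold for Prrx1, with 8.08 RPKM in cluster 7 against 6.22 RPKM in cluster 2, and narrower for Twist1, with 24.5 RPKM in cluster 4 against 23.2 RPKM in cluster 5, a ratio whose interval included 1 (0.952 to 1.18). For Twist2 the boundary lay between 0.721 RPKM in cluster 3 and 0.540 RPKM in cluster 5, and the interval of their ratio also included 1 (0.809 to 2.28). With TMM factors the pattern was held by 3 members, Twist2, Msx1 and Tbx4, and by Msx1 and Tbx4 alone with DESeq2 size factors or with the 3 loci left out of the totals. Either non-overlapping pattern was then found in 12.3%, 12.1% and 13.3% of genes above RPKM 2. Without cluster 5 it was held by 6 members, since Prrx2 was added, while the share of genes above RPKM 2 with either non-overlapping pattern rose from 20.9% to 29.4%.

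Single libraries were the extremes of several members. Cluster 1 was the highest sorted library for Prrx1, Twist1, Twist2 and Msx1, 4 of 8 members, against 21.3% of genes above RPKM 2. Cluster 4 was the highest for Prrx2 and Pitx1, against 8.95% of genes. Cluster 6 was the lowest for 6 of 8 members, all general factors and Tbx4, against 25.5% of genes. With total counts, Twist2 was above RPKM 2 only in clusters 1 and 4, and Tbx4 only in clusters 1, 3, 4 and 7. Both passed the threshold through libraries where they were high, so their places in these counts add no support. With TMM factors or DESeq2 size factors, cluster 2 was the lowest library for Tbx4. Across 5 alternative scalings, Prrx1, Twist2, Msx1, Tbx5 and Lmx1b kept their highest and lowest library, whereas the highest library of Twist1 changed in 3 of them and that of Pitx1 in 2.

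Markers of other cell types moved with these extremes. In cluster 6, the chondrocyte gene Col2a1 reached 10541 RPKM and the 6 chondrocyte genes summed to 15098 RPKM, against 597 RPKM in cluster 1. In cluster 4, the highest library for Prrx2 and Pitx1, they summed to 5516 RPKM, with Col2a1 at 3046 RPKM. Their sum was 634 RPKM in cluster 5, where Pitx1 was also low, 1116 RPKM in cluster 3 and 1604 RPKM in cluster 7. The 7 osteoblast genes, with Bglap the most abundant, summed to 22822 RPKM in cluster 6 and 24728 RPKM in cluster 3, against 686 RPKM in cluster 1. Cluster 2, which was highest for Shox2, had 12321 RPKM of chondrocyte genes, less than cluster 6. The skeletal muscle genes had their highest sum in cluster 2, at 120 RPKM, against 62.8 RPKM in cluster 6 and 3.12 RPKM in cluster 4. Of the 4 tendon genes, Scx, Tnmd and Mkx were lower in cluster 6 than in cluster 1, with Tnmd at 5.34 and 229 RPKM. Their sum was nevertheless higher in cluster 6, at 1468 against 1014 RPKM, through Fmod, which was at 1453 and 734 RPKM. All chondrocyte and osteoblast genes were above RPKM 2 in clusters 1 and 6. Stromal genes differed as well. Pdgfra was at 18.0 to 28.1 RPKM in clusters 1, 3, 4 and 7 and at 4.37 to 7.51 RPKM in clusters 2, 5 and 6. Among the sorted libraries, Col3a1, Pdgfrb and Cxcl12 were lowest in cluster 6, whereas Col1a1 and Col1a2 were highest there. The part of these cell types in the levels of the limb factors was not tested.

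The other marker lists varied in ways that did not follow 1 order. The 9 leukocyte genes summed to 272 RPKM in cluster 3 up to 932 RPKM in cluster 7 and 1431 RPKM in the input, and the 7 neutrophil genes to 10805 RPKM in cluster 3 up to 28706 RPKM in cluster 7 and 42331 RPKM in the input. The 6 erythroid genes summed to 68504.5 RPKM in cluster 5, with Hba-a1 at 30376 RPKM, against 1591 RPKM in cluster 6, and they were highest in cluster 5, where Tbx5 and Pitx1 were low. The 6 endothelial genes summed to 5.70 to 18.9 RPKM, with Eng the most abundant. Skeletal muscle genes had 3 of 8 members above RPKM 2, with Acta1 at 69.6 RPKM in cluster 2 and 1.00 RPKM in cluster 4, and Myf5 at or below 3 counts in all sorted libraries. Pericyte and smooth muscle genes, which include Acta2, summed to 6.16 RPKM in cluster 6 up to 96.8 RPKM in cluster 7, and adipogenic genes to 3.48 RPKM in cluster 6 up to 66.0 RPKM in cluster 4, where Adipoq was at 29.6 RPKM. Their part in the levels of the 10 genes was not tested.

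To describe which genes shared the pattern of each member, Pearson's r of log2(RPKM + 1) was taken over the 7 sorted libraries against 8054 genes. With 7 points from single libraries that share depth and composition, many genes reach high values, and no p-value is given. The genes most like Prrx1 were Twist1 (r = 0.989), 4921524J17Rik (0.988) and Ddah2 (0.988). Those most like Prrx2 were Nit2, Hic1 and C1s (0.986 each), and those most like Twist2 were Bag3 (0.991), Basp1 (0.986) and St5 (0.985). For Twist1 they were 4921524J17Rik (0.993), Prrx1 (0.989) and Nov (0.983), and for Msx1 they were Cyp4f16 (0.994), Pdlim7 (0.991) and Qprt (0.991). Tbx4 was closest to Usp25 (0.994), Cdk2ap2 (0.987) and Atp6ap2 (0.985), and Shox2 to Gm5113 (0.992), Cox8b (0.980) and Gm5617 (0.977). Pitx1 was closest to Comp (0.966), which encodes a matrix protein of cartilage and tendon, Fibin (0.939) and 1500015O10Rik (0.936).

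Among the members themselves, Prrx1 with Twist1 had the highest r of the 45 pairs, at 0.989, followed by Twist2 with Msx1 at 0.944, and with TMM factors these were 0.877 and 0.930. Tbx5 and Tbx4, the forelimb and hindlimb paralogs, had an r of 0.763, whereas the hindlimb genes Tbx4 and Pitx1 had an r of -0.12. Pitx1 with Prrx1 was at -0.41 and Tbx4 with Shox2 at -0.46. With TMM factors these 4 values were 0.697, -0.31, -0.67 and -0.81.

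Other genes of the same pathways were then described from lists. Of 26 limb field and axis factors, 11 were above RPKM 2 in at least 1 sorted library, against 25.1% of all genes, a share that also applies to the lists that follow. Tbx15, a T-box factor of skeletal growth, ranged from 8.26 RPKM in cluster 5 to 18.4 RPKM in cluster 7, with 11.8 RPKM in the input. Dlx5, a homeodomain factor of osteoblasts, was at 1.28 RPKM in cluster 1 and 6.21 to 8.39 RPKM in the other sorted libraries. Irx5 was likewise lowest in cluster 1 (1.99 RPKM) and highest in cluster 6 (11.4 RPKM), the reverse of the extremes of Prrx1, and Tbx2 was between 4.92 and 10.5 RPKM. Sall4 was at or below 3 counts in all sorted libraries, and it was listed at 1.18 RPKM in the input, below the 95th percentile of the olfactory receptor genes there.

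**Figure D4:**
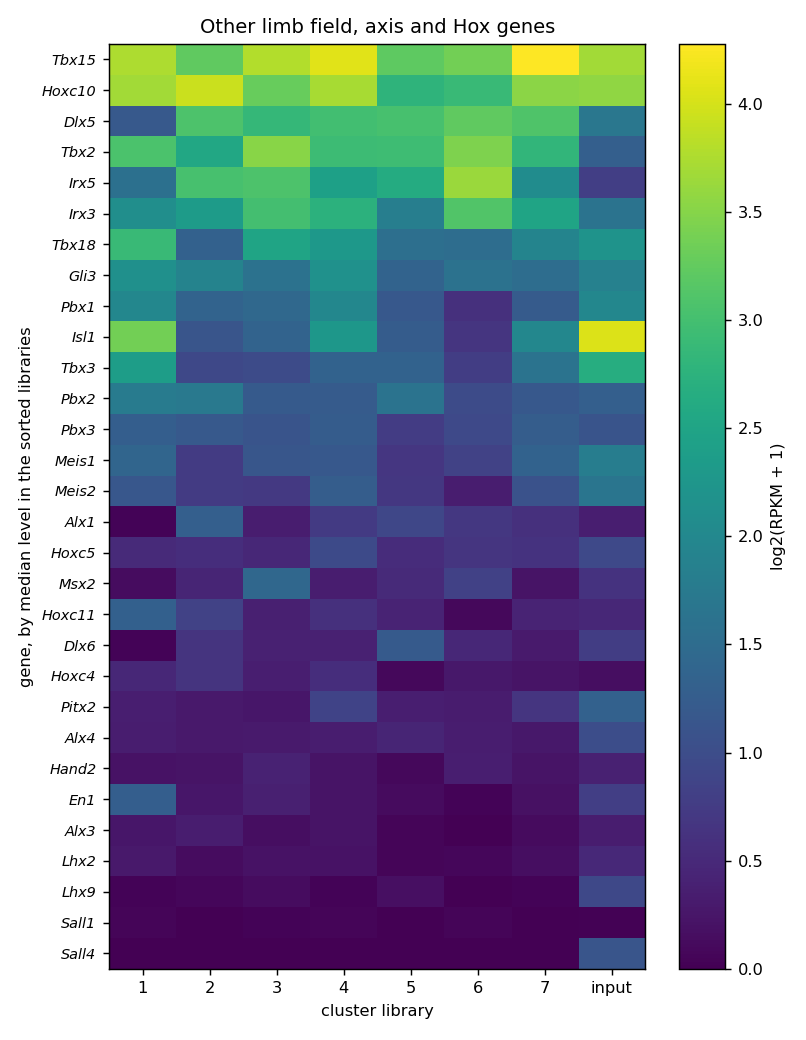
Heat map of log2(RPKM + 1) of 26 limb field and axis factors and 4 limb-level Hox genes (rows, ordered by their median over the sorted libraries) in cluster libraries 1 to 7 and the input (columns), with 1 library each. Tbx15 and Hoxc10 had the highest medians over the sorted libraries, among which Dlx5 and Irx5 were lowest in cluster 1, and Sall4 was at or below 3 counts in the 7 sorted libraries.

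The partners and antagonists of TWIST proteins were all expressed. Of 7 genes, 7 were above RPKM 2, and the 4 with the highest median over the sorted libraries were the inhibitory Id genes, although Id4 was below Tcf3 in clusters 2 and 6 and in the input. Id3 ranged from 167 RPKM in cluster 6 to 738 RPKM in cluster 4, Id2 from 143 to 241 RPKM, Id1 from 47.1 to 107 RPKM and Id4 from 5.92 RPKM in cluster 6 to 30.9 RPKM in cluster 1. Cluster 6 was the lowest sorted library for Id2, Id3 and Id4 as it was for Twist1 and Twist2. Both LIM cofactors, Ldb1 (8.57 to 14.3 RPKM) and Ldb2 (2.23 to 6.90 RPKM), which bind LIM homeodomain proteins such as Lmx1b, were above RPKM 2, whereas Lmx1b was not.

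Of 5 factors linked with epithelial-mesenchymal transition, as Twist1 is, all were above RPKM 2 in a sorted library. Snai2 (7.54 to 19.6 RPKM) and Snai1 (4.42 to 13.7 RPKM) were highest in cluster 2 and lowest in cluster 3, Zeb1 was highest in cluster 1 (8.64 RPKM) and lowest in cluster 6 (1.70 RPKM), and Foxc2 was between 2.73 and 7.64 RPKM. Of 6 ligands linked to the limb factors, 5 were above RPKM 2, and Wnt7a, a dorsal signal upstream of Lmx1b, was not. Bmp2 was at 18.5 to 56.7 RPKM, Bmp4 at 6.66 to 27.7 RPKM, Gdf5 at 0.269 to 3.35 RPKM and Grem1 at 0.489 to 4.21 RPKM.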

How the data were processed

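The 8 RNA-seq libraries, 7 of sorted marrow populations and 1 of input cells, were named by the titles in the labels. For each Ensembl gene the authors deposited unnormalized counts of reads, with GRCm38 exon coordinates and lengths. According to the Methods, low-quality bases were trimmed and reads were aligned by TopHat2 to mm9 in Partek Flow 2.2 and expressed as RPKM. The counting tool and strandedness are not given in the sources used here. The Methods and the labels give different amounts of RNA for the libraries.

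Deposited counts were divided by exon length and by the total over genes to give RPKM, with a pseudocount of 1 where stated and the threshold of RPKM 2 of the study. Intervals are 95% exact Poisson intervals of counts and exact binomial intervals of ratios. No test was run, and edgeR and DESeq2 gave scaling factors only. All 10 members were described. From each pathway list the 4 genes with the highest median RPKM over the sorted libraries and those at or below 3 counts in all of them were named, with the 3 genes most alike for each member above RPKM 2. The members and lists were chosen with earlier results of these data known. Cell type markers were summarised over each list, and those named from them were chosen after their values were seen. Symbols were found for 32464 of 49315 genes, and for all 133 genes listed. Promoter sequences are from RefSeq and were matched by symbol for 8 of the 10 members. Motifs were searched on both strands as the exact letters given beside them. The calculations were checked on simulated counts. Alternatives comprised TMM factors, DESeq2 size factors, totals without the 3 abundant loci or without mitochondrial and haemoglobin genes, counts thinned to the lowest total, other thresholds and pseudocounts, and ratios without exon length. A further alternative lowered the input by its median olfactory receptor RPKM. Scaling used edgeR 4.0.16 and DESeq2 1.42.0 in R 4.3.3, and all else used Python 3.11.15 with scipy 1.17.1, pandas 2.3.3, numpy 2.4.6 and matplotlib 3.10.9.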

Additional observations from a re-analysis of the deposited data

How the results depend on the processing

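The ratios of the highest to the lowest library and the ratios to Tbx5 kept their direction under the alternatives tried, but the order of libraries changed for several genes. Cluster 5 became the highest library for Twist1 with TMM factors, DESeq2 factors or without the 3 loci and passed to the place next to cluster 2 for Shox2 without the 3 loci, and cluster 1 became the lowest for Shox2 with TMM factors. Cluster 6 passed cluster 4 for Pitx1 and cluster 3 for Tbx5 with TMM or DESeq2 factors, cluster 2 became lower than cluster 6 for Tbx4, and cluster 1 passed cluster 4 for Prrx2 without mitochondrial and haemoglobin genes. With counts thinned to equal totals, Tbx4 in cluster 7 was below the input, with a ratio of 0.988. In all, 72 of 97 alternative values stayed within the counting error of the value reported or within 1.5 times the count reported. Members above the input in all 7 sorted libraries numbered 2 with TMM factors and 2 with DESeq2 size factors (Twist1 and Shox2), against 1 with total counts, with 31.4%, 30.8% and 6.55% of the genes above RPKM 2. Members with clusters 1, 3, 4 and 7 all above clusters 2, 5 and 6 numbered 3 with TMM factors, 2 with DESeq2 size factors and 2 when Rn18s-rs5, Lars2 and mmu-mir-689-2 were left out of the totals, against 5. The cause was not tested. The share of genes above RPKM 2 with either non-overlapping pattern was 12.3%, 12.1% and 13.3% under these scalings, against 20.9%. Among the 5 members with total counts, Twist2 and Tbx4 were above RPKM 2 only in clusters 1, 3, 4 or 7. The number of members above the RPKM threshold was 9 at a threshold of 1 (31.9% of all genes) and 7 at a threshold of 5 (16.8%), against 8 (25.1%). More than 2-fold differences on the RPKM + 1 scale were held by 7 members with TMM factors, DESeq2 size factors or equal totals (56.8%, 55.8% and 71.8% of the genes above RPKM 2), against 8 (70.6%). For the non-overlapping pattern, alternatives without cluster 5 and without a filter on low values were added after the data were seen, and each left 6 members with the non-overlapping pattern, against 29.4% of the genes above RPKM 2 without cluster 5 and 7.56% of all genes without the filter. For the more than 2-fold difference, omitting the filter gave 9 members, against 20.9% of all genes. Among single genes, 20 values moved, of which 9 were ratios to Tbx5 without exon length. Leaving out a replicate was not possible. No paired analysis was possible because 1 library was made for each population. Depth limits Tbx5, Lmx1b and Twist2, which had 1, 6 and 22 counts in cluster 5.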
